A study of Rattus norvegicus with 48 samples.

Results

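The genes described here encode the collagens, the other proteins of the extracellular matrix, and the proteases and protease inhibitors that turn the matrix over in the rat kidney. They were taken by gene symbol from the array annotation: all numbered collagen chains, lysyl oxidases, fibulins, fibrillins, laminins, matrix metalloproteinases (Mmp), their tissue inhibitors (Timp) and Adamts proteases, with fibronectin (Fn1), lumican (Lum), decorin (Dcn), biglycan (Bgn), Sparc, periostin (Postn) and tenascin C. This gave 80 probes for 79 gene symbols among 22226 probes, of which 13650 carried 1 symbol. Fbn2 had 2 probes and tenascin C had 0.

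Male rats were studied on day 28 and RNA was taken from renal cortex and renal medulla, with 6 arrays per group and tissue and 48 arrays in all. Control rats ate regular chow, HLP-fed rats ate chow with 5% hydroxy-L-proline, which the body converts to oxalate, the apocynin group ate the regular diet and drank water with apocynin, an inhibitor of NADPH oxidase, which the labels give as 4 mmol, and HLP+Apocynin-fed rats received both. The study asked how hyperoxaluria changes renal gene expression and how apocynin modifies it. The labels give the strain as Wistar whereas the study's methods name Sprague-Dawley rats and 3 groups without apocynin alone, and the labelled age of 28 days is the same figure as the feeding period.

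The matrix is built from fibril-forming collagens, which give tensile strength, and from the collagen IV and laminin network of basement membranes. Lysyl oxidases cross-link collagen and elastin, small proteoglycans such as decorin and lumican control fibril assembly, and fibulins and fibrillins organise elastic fibres. Mmp and Adamts enzymes cut matrix proteins and Timp proteins inhibit them. In the kidney most interstitial collagen is made by fibroblasts and pericytes, and excess deposition is known as fibrosis.

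Values are log2 normalized intensities. In the table of signals the control and HLP arrays of a tissue fill 1 block of 12 columns and the apocynin and HLP+Apocynin arrays another. An effect of apocynin and an effect of the block cannot be told apart, while HLP against control, and HLP+Apocynin against apocynin, were compared within a block. The deposited log2 table holds the same 48 arrays, but 40 carry another name there and 24 the name of another group, with 0 changing tissue. The labels used here are those of the signal table, and the main results that depend on the choice are given both ways. The array numbered 3 of the HLP+Apocynin group stood apart in both tissues, so the members' results that turn on that group are given with and without it. In the log2 table this rat is named apocynin 5. Control cortex 4 and control medulla 4 also lay nearer the other tissue than the rest of their groups: 7 proximal tubule markers averaged 0.56 log2 units below the control mean in the first (difference -0.56) and 1.23 above it in the second. The apocynin and HLP+Apocynin medulla groups held such arrays too. In medulla the highest mean of these markers was 12.35 in control, 12.26 with apocynin (median 11.52) and 12.25 with HLP+Apocynin (median 11.45). With HLP it was lower, at 11.93 (median 11.49).

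The signal passed the detection threshold (detection p under 0.05) in at least 6 of 24 arrays for 48 member probes in cortex and 49 in medulla, and these were tested, whereas 20 of the 80 probes were detected in 0 arrays. Among those 20 were 7 metalloproteinases (Mmp1, Mmp8, Mmp10, Mmp20, Mmp21, Mmp27 and Mmp28), 8 collagen chains including Col2a1 and Col6a2, and 4 Adamts proteases. In total, 34 members were detected in all 48 arrays. Median signal ranged from 36.4 to 75.1 and 48.2% to 52.9% of probes were detected per array.

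Promoter sequences (RefSeq, build GRCr8, from 250 bases before to 50 after the annotated gene start) were matched for 59 of the 80 member probes. They are shown for Timp3, which was higher in HLP-fed cortex and higher in cortex than medulla, for Sparc, also higher in cortex, and for Lum, which was higher in HLP+Apocynin-fed medulla. Capitals mark the TATA box TATAAA, the CCAAT box CCAAT, the GC box GGGCGG and the AP-1 site TGANTCA on either strand, and no marked matches overlapped.
Timp3, chr7:19459509-19459808, minus strand: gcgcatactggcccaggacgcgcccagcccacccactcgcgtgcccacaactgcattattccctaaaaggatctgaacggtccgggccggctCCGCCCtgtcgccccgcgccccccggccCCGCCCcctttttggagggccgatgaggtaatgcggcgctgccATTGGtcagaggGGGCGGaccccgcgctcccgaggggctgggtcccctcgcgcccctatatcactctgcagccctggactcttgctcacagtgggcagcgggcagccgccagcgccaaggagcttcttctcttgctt
Sparc, chr10:40038767-40039066, minus strand: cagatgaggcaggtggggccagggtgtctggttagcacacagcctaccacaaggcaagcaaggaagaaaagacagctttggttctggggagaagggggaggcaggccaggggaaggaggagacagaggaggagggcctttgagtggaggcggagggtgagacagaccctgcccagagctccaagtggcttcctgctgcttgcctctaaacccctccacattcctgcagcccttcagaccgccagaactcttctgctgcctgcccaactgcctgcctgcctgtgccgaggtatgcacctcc
Lum, chr7:34245456-34245755, plus strand: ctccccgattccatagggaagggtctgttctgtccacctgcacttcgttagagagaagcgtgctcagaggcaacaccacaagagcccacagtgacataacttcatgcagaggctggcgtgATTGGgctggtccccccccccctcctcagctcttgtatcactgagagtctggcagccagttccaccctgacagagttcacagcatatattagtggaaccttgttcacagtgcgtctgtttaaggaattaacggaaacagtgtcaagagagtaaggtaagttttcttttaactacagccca
The Timp3 window held 3 GC boxes, beginning at -158, -130 and -75 from the gene start, and 1 CCAAT box at -87. The Lum window held 1 CCAAT box at -130, and the Sparc window matched none of these letters. Of 33469 promoters of the same length, 33.1% held a GC box, 37.5% a CCAAT box, 14.2% TATAAA and 7.3% an AP-1 site, and of the 59 member promoters 45.8%, 28.8%, 25.4% and 13.6% did. These matches describe the letters only.

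In HLP-fed cortex a single member was up-regulated against control. Timp3 encodes the metalloproteinase inhibitor that binds to the matrix itself. Its values in the 6 control arrays ran from 9.19 to 10.23 (median 9.49), in the 6 HLP arrays from 9.80 to 10.80 (median 10.39), in the apocynin arrays from 9.08 to 9.75 (median 9.53) and in the HLP+Apocynin arrays from 8.62 to 9.62 (median 9.39). The HLP arrays were the high ones, all 6 above the control mean, though the lowest 3 of them overlapped the highest controls. The mean was 10.35 ± 0.38 (SD, n = 6) with HLP and 9.59 ± 0.41 in control, a difference of 0.76 ± 0.19 (standard error) or 1.69-fold (limma, adjusted p = 0.0401). The call did not hold under 7 of 14 other settings, where the difference ran from 0.39 to 1.24 over all 14 and the adjusted p up to 0.704. It was also lost when any of 8 single arrays was left out (difference 0.67 to 0.89 over all single arrays left out, adjusted p up to 0.117). With the arrays named as in the log2 table it was 0.48 (adjusted p = 0.539), and over the 3 arrays per group that both tables place in the same group, here called those of settled name, it was 1.24 (adjusted p = 0.00102). Settled refers to the group alone, since only 8 of the 48 arrays carry the same group and number in both tables. Among the 48 members 1 was called, beside 2.46% of all tested probes (1.07% higher and 1.39% lower). With HLP+Apocynin 3 left out of the fit it was again Timp3 (adjusted p = 0.0312), beside 3.36% of probes (1.48% higher, 1.88% lower).

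Timp3 was lower in HLP+Apocynin-fed cortex than in HLP-fed cortex, and here the groups did not overlap: all 6 HLP+Apocynin arrays lay below the lowest HLP array. The difference was -1.04 ± 0.19, or 2.06-fold (adjusted p = 0.000475), and without HLP+Apocynin 3 it was -0.90 ± 0.18 (adjusted p = 0.00125). This call held under all 14 alternative settings, with adjusted p from 0.000323 to 0.0402, and when each array in turn was left out. It spans the column blocks described above. Apocynin alone against control gave -0.10 ± 0.19 (adjusted p = 0.781), and HLP+Apocynin against apocynin, within a block, gave -0.19 ± 0.19 (adjusted p = 0.854). The test of whether the HLP effect differed with and without apocynin gave -0.94 ± 0.27 and did not pass (adjusted p = 0.193; without HLP+Apocynin 3, -0.81, adjusted p = 0.242). Over the 3 arrays per group of settled name it was -1.21 (adjusted p = 0.0365). The mean of 7 proximal tubule markers was 12.36 to 12.45 in the HLP cortex arrays, 11.58 to 12.35 in control and 11.98 to 12.50 with HLP+Apocynin. In whole tissue, more cells of a type and more RNA per cell cannot be told apart, and the part of tissue composition in the Timp3 values was not tested. Leaving out control cortex 4 gave 0.74 for HLP against control (adjusted p = 0.0751).

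The other members showed no call for HLP against control in cortex. Their differences ran from -0.44 for Dcn to 0.44 for Sparc, and the median of all 48 was -0.03 beside 0.00 for all probes tested. The next smallest p-values belonged to Adamts9, an aggrecanase-type protease, at 0.18 ± 0.08 (adjusted p = 0.183), and Mmp9, a gelatinase, at 0.14 ± 0.07 (adjusted p = 0.266). On the lower side, Adamts2, which trims procollagen, stood at -0.07, Bgn at -0.23 and Mmp23 at -0.04 (adjusted p from 0.338 to 0.392). All 4 tested cross-linking enzymes and all 3 small proteoglycans were on the lower side with HLP, with medians of -0.17 and -0.23, and none of them passed the test. Col1a1 and Col3a1, the main interstitial collagen genes, gave -0.07 ± 0.23 and -0.13 ± 0.36.

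In medulla, HLP against control gave 0 of 49 members at the adjusted threshold and 0 at an unadjusted p under 0.05 (limma), and 0% of all probes were called there. The median member difference was 0.01. Timp3 again stood on the higher side, with 8.89 to 9.61 (median 9.18) in HLP arrays and 8.24 to 9.34 (median 8.86) in control, a difference of 0.36 ± 0.22 (adjusted p = 0.866), which became -0.08 when arrays were named as in the log2 table (adjusted p = 0.999). Its HLP effect did not differ detectably between tissues (cortex minus medulla 0.40 ± 0.27, adjusted p = 0.679). Mmp3 (stromelysin 1) at 0.03, Mmp9 at 0.05, Col4a3, a chain of the glomerular basement membrane, at -0.17, and Fbn2 and Mmp2 at -0.02 and -0.03 followed, with adjusted p from 0.846 to 0.958.

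**Figure D1:**
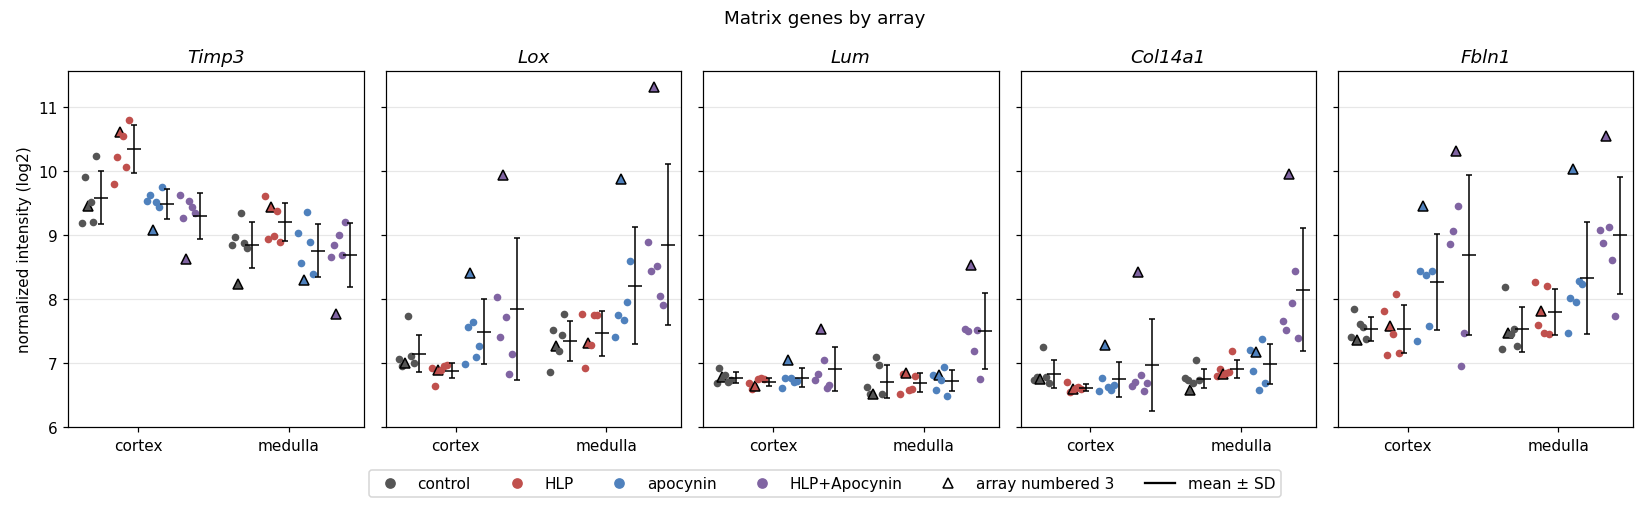
Normalized intensity (log2) of Timp3, Lox, Lum, Col14a1 and Fbln1 in each array, by tissue and group, with the mean and SD of 6 arrays and the arrays numbered 3 drawn as outlined triangles. Timp3 was highest in HLP-fed cortex, at 9.80 to 10.80, and the other genes were highest in HLP+Apocynin-fed medulla, where array 3 lay above the remaining 5 for each of them.

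In HLP+Apocynin-fed medulla 4 matrix genes were up-regulated against control: Col14a1, Lum, Fbln1 and Lox. Collagen XIV is a fibril-associated collagen, lumican a small proteoglycan of collagen fibrils, fibulin 1 a glycoprotein of elastic fibres and basement membranes, and lysyl oxidase the enzyme that starts collagen and elastin cross-linking. The number of members called was 4 higher and 0 lower of 49. Of all probes 2.25% were called higher, 5.1% lower and 7.35% in either direction. At an unadjusted p under 0.05 there were 26 members, a count with no share of all probes beside it. Without HLP+Apocynin 3 the number called was 3 higher and 0 lower, beside 1.9%, 3.41% and 5.31%. Against HLP it was 3 higher and 0 lower, beside 3.6%, 4.65% and 8.25%, and without that array 2 higher and 0 lower, beside 2.55%, 2.83% and 5.38%.

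Col14a1 was measured at 7.38, 7.52, 7.65, 7.93, 8.44 and 9.95 in the HLP+Apocynin medulla arrays. Control arrays ran from 6.58 to 7.04 (median 6.73), HLP arrays from 6.80 to 7.19 and apocynin arrays from 6.58 to 7.38. All 6 HLP+Apocynin arrays were above all 6 controls and all 6 HLP arrays. The difference from control was 1.39 ± 0.28, or 2.62-fold (adjusted p = 0.00535), and without HLP+Apocynin 3 it was 1.03 ± 0.16 (adjusted p = 0.00133). Against HLP it was 1.25 ± 0.28 (adjusted p = 0.0118; without array 3, 0.89 ± 0.16, adjusted p = 0.00520).

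Lum ran from 6.74 to 8.53 (median 7.51) with HLP+Apocynin and from 6.51 to 7.09 (median 6.57) in control. One HLP+Apocynin array, at 6.74, lay inside the control range and the other 5 above it. The difference was 0.80 ± 0.19, or 1.74-fold (adjusted p = 0.0120), and 0.59 ± 0.13 without array 3 (adjusted p = 0.0127). Against HLP it was 0.81 ± 0.19 (adjusted p = 0.0124; without array 3, 0.60 ± 0.13, adjusted p = 0.0152).

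Fbln1 ran from 7.74 to 10.55 (median 8.98) with HLP+Apocynin and from 7.21 to 8.19 (median 7.47) in control. The groups overlapped through 1 array on each side. The difference was 1.47 ± 0.37, or 2.78-fold (adjusted p = 0.0204; without array 3, 1.16 ± 0.33, adjusted p = 0.0435). Against HLP it was 1.20 ± 0.37 at the edge of the threshold (adjusted p = 0.0496), and the call was lost without array 3 (0.89, adjusted p = 0.118).

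Lox ran from 7.90 to 11.32 (median 8.48) with HLP+Apocynin and from 6.85 to 7.77 (median 7.35) in control, with no overlap. Array 3 held the 11.32, and the next highest was 8.89. The difference of 1.51 ± 0.44, or 2.85-fold (adjusted p = 0.0412), was 1.02 ± 0.32 without that array and no longer passed (adjusted p = 0.0609). Against HLP it was 1.39 ± 0.44 (adjusted p = 0.0538; without array 3, 0.90 ± 0.32, adjusted p = 0.0968).

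These medullary calls depended on the fit and on the array names. Fitted on the 12 arrays compared, 0 members were called against control and 0 against HLP, and the same was true of the methods' t-test after Benjamini-Hochberg adjustment. The share of all probes called by those fits is not given, so these counts describe no trait of the members. Named as in the log2 table, the arrays gave a difference from control of 0.35 for Col14a1, 0.19 for Lum, 0.57 for Fbln1 and 0.75 for Lox, with adjusted p from 0.322 to 0.675. Over the 3 arrays per group of settled name, Col14a1 differed from control by 0.82 (adjusted p = 0.0390), Lum by 0.44, Fbln1 by 1.17 and Lox by 1.10 (adjusted p from 0.212 to 0.293). When both HLP+Apocynin 3 and apocynin 3 were left out, a setting chosen after seeing the data, Col14a1, Lum, Fbln1 and Lox were all called higher against control. Lox then stood at 1.02 (limma, adjusted p = 0.00814).

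Some smooth muscle and cell cycle genes were called in the same comparison. Of 5 smooth muscle markers tested, Tagln, an actin-binding protein of smooth muscle, was 1.73 higher in HLP+Apocynin-fed than control medulla (adjusted p = 0.0121; without array 3, 1.33, adjusted p = 0.0187), and Actg2, an enteric smooth muscle actin, was 1.70 higher (adjusted p = 0.0493; without array 3, adjusted p = 0.0963). The other three stood at 0.75 for Des (adjusted p = 0.0528), 0.02 for Cnn1 and -0.34 for Smtn (adjusted p = 0.0641). The mean of the 5 ran from 7.73 to 9.14 (median 8.43) with HLP+Apocynin and from 7.40 to 8.26 (median 7.51) in control. All 3 tested cell cycle genes were higher, Ccnb2 by 1.02 (adjusted p = 0.0117), Cdk1 by 0.69 (adjusted p = 0.0493) and Cdc20 by 0.20 (adjusted p = 0.0371), of which Ccnb2 alone remained called without array 3, and all 3 were higher than in HLP-fed medulla (2 without array 3). Their mean ran from 7.21 to 8.31 with HLP+Apocynin and from 6.89 to 7.30 in control. Of 4 endothelial genes Vwf was lower (-0.90, adjusted p = 0.0269; without array 3, -0.69, adjusted p = 0.0565). The cell cycle and Vwf calls were not particular to this comparison. Apocynin alone in medulla called Ccnb2 and Cdc20 higher (median of 3 genes 0.62) and Vwf lower, beside 2.84% and 4.29% of all probes. In HLP+Apocynin-fed cortex all 3 cell cycle genes were called higher than control (1 without array 3), beside 8.82% of all probes. The part of the smooth muscle, cell cycle and endothelial genes in the matrix values was not tested.

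Against apocynin, within the column block, Col14a1 was 1.17 ± 0.28 higher with no overlap, Lum 0.78 ± 0.19, Fbln1 0.67 ± 0.37 and Lox 0.64 ± 0.44 in medulla (without array 3, 0.81, 0.57, 0.36 and 0.15). With the log2 table's names all 4 lay on the other side, at -0.81, -0.49, -0.68 and -0.77 (adjusted p = 0.815 for each). By the signal table's names, 0 of the 49 members and 0% of all probes passed the adjusted threshold (limma; 5 members had an unadjusted p under 0.05).

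The wider group of members in HLP+Apocynin-fed medulla stood mostly on the higher side without passing the test. Of 49 members, 40 had a positive difference from control, 81.6% against 47.4% of all probes, and the median was 0.46 (all probes, 0.00). Without HLP+Apocynin 3 the count was again 40 and the median 0.13. Among fibril-forming collagens the median of 7 was 0.82, with Col3a1 at 1.15 ± 0.47 (without array 3, 0.72), Col1a1 at 0.84 ± 0.34 (0.40) and none called. Among the inhibitors, Timp1 showed the greatest member difference at 1.53 ± 0.55 (adjusted p = 0.0930), with arrays from 8.12 to 12.39 against 7.24 to 8.38 in control, and 0.93 ± 0.41 without array 3. Fn1, the glycoprotein that links cells to collagen, stood at 1.43 ± 0.53 (adjusted p = 0.101; without array 3, 0.95). The basement membrane group was spread from -0.63 for Lamb2 to 1.23 for Col15a1, with a median of 0.02. The 8 tested metalloproteinases had a median of 0.10.

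**Figure D2:**
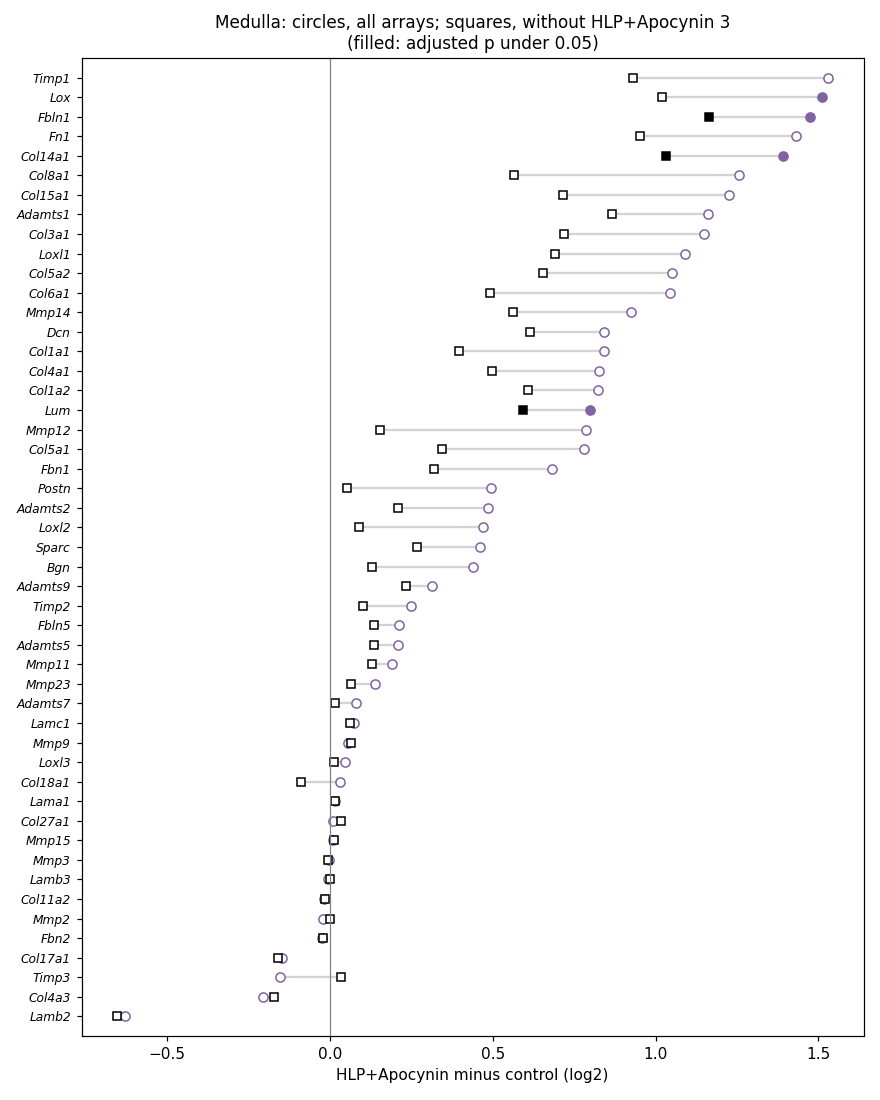
HLP+Apocynin minus control in medulla (log2) for the 49 tested member probes, from all arrays (circles) and without HLP+Apocynin 3 (squares), with filled symbols for adjusted p under 0.05. The median fell from 0.46 to 0.13 when that rat was left out, and Col14a1, Lum and Fbln1 remained called while Lox did not.

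In cortex HLP+Apocynin gave small calls in dim probes and calls for Sparc, Mmp11, Col4a1 and Lox. Against control 5 members were higher and 0 lower, beside 8.82% of all probes called higher, 7.25% lower and 16.1% in either direction, and against HLP 5 were higher and 1, Timp3, lower, beside 9.33%, 9.06% and 18.4%. Without HLP+Apocynin 3 the counts were 3 and 0 against control (7.99%, 5.45% and 13.4% of all probes) and 3 and 1 against HLP (7.76%, 6.6% and 14.4%). In either direction members were called less often than probes in general in these comparisons, a difference that was not tested. Sparc, a collagen-binding glycoprotein, ran from 10.95 to 12.52 (median 11.91) with HLP+Apocynin and from 10.53 to 11.56 (median 11.11) in control, overlapping, with a difference of 0.71 ± 0.24 (adjusted p = 0.0413; without array 3, 0.57, adjusted p = 0.107). Mmp11 (stromelysin 3) ran from 7.59 to 8.18 against 7.13 to 7.81 and differed by 0.35 ± 0.10 (adjusted p = 0.0248; without array 3, 0.28, adjusted p = 0.0679). Col4a1, the main basement membrane collagen chain, differed from HLP by 0.53 ± 0.18 (adjusted p = 0.0407; without array 3, 0.33, adjusted p = 0.0952), with 9.18 to 10.65 against 8.62 to 9.40. Lox differed from HLP by 0.97 ± 0.34 (adjusted p = 0.0484; without array 3, 0.55, adjusted p = 0.0871), with 6.83 to 9.94 against 6.64 to 6.96. All 4 of these calls were lost without that array.

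The remaining cortical calls were shifts of 0.10 log2 units or less in dim probes. Mmp2, a gelatinase, was 6.59 to 6.65 with HLP+Apocynin, 6.61 to 6.66 with apocynin, 6.52 to 6.58 in control and 6.50 to 6.54 with HLP. Both apocynin-treated groups lay above both untreated groups, by 0.08 and 0.09 against control (adjusted p = 0.000308 and 2.99e-05). Fbn2, which was detected in 0 of 6 control and 0 of 6 HLP cortex arrays but in 5 of 6 HLP+Apocynin and 6 of 6 apocynin arrays, stood 0.06 and 0.08 above control in those groups. It entered the test in cortex only through the groups in which it was high, so its calls, which the counts above include, support nothing. Lamb3, a laminin chain of epithelia, was 0.04 higher with apocynin than in control (adjusted p = 0.0119) and 0.04 higher with HLP+Apocynin than with HLP (adjusted p = 0.0227). It was detected in only 10 of 24 cortex arrays, and its higher values lay mostly in the apocynin-treated groups. Lamb3 may thus also have entered the test through the groups in which it was high, so its calls, counted above, are given no weight. Lamc1, the common laminin gamma chain, was 0.10 higher with HLP+Apocynin than control (adjusted p = 0.0300; without array 3, adjusted p = 0.0786), and Col4a4 was 0.05 lower with apocynin (difference -0.05, adjusted p = 0.0419). Each of these comparisons spans the column blocks. Lamc1 did not split by block: it ran from 6.73 to 6.82 in control and 6.74 to 6.87 with HLP. With apocynin it ran from 6.74 to 6.91, and with HLP+Apocynin from 6.82 to 6.95. In medulla Mmp2 and Fbn2 gave -0.02 and -0.03 for HLP+Apocynin against control, and their effects differed between tissues by 0.10 and 0.08 (adjusted p = 0.00464 and 4.30e-05). This comparison took the 54 members detected in at least 6 of the 48 arrays of the tissues together. Among them that difference was called for 2 higher and 2 lower, beside 9.38% and 4.66% of all probes (14% in either direction). Without HLP+Apocynin 3 it was called for 2 and 3, beside 7.86% and 3.84% (11.7%). Within the column block, HLP+Apocynin against apocynin gave 0 of 48 members in cortex (limma; 2 at an unadjusted p under 0.05), with 0% of all probes called.

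Of the 4 genes that rose in medulla against control, 0 were called against control in cortex, and Lox was called there against HLP. With HLP+Apocynin, cortical Col14a1 ran from 6.56 to 6.81 in 5 arrays and stood at 8.43 in array 3, against 6.68 to 7.25 in control, and Lum ran from 6.61 to 7.53 against 6.68 to 6.93. The test of the difference between tissues passed for both: the HLP+Apocynin effect on Col14a1 was 1.25 lower in cortex than medulla (-1.25 ± 0.32, adjusted p = 0.00505; without array 3, -1.18, adjusted p = 3.19e-05) and that on Lum 0.67 lower (-0.67 ± 0.19, adjusted p = 0.0154; without array 3, -0.59, adjusted p = 0.00689). For Fbln1 the cortical difference from control was 1.16 ± 0.41 (adjusted p = 0.0538; without array 3, 0.84), and for Lox it was 0.71 ± 0.34 (adjusted p = 0.162; without array 3, 0.29). Their effects did not differ detectably between tissues (cortex minus medulla -0.31 ± 0.49 and -0.81 ± 0.49, adjusted p = 0.748 and 0.305). All of these used the signal table's names. With the log2 table's names, mean cortical Col14a1 was 6.71 with HLP+Apocynin and 6.69 in control, and in medulla 7.16 and 6.81. Mean Lum was then 6.80 and 6.71 in cortex, and 6.87 and 6.68 in medulla. The test between tissues is not given for those names.

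Apocynin alone gave no called member in medulla (limma, 5 of 49 at an unadjusted p under 0.05, beside 2.84% of all probes called higher, 4.29% lower and 7.13% in either direction) and 3 higher and 1 lower in cortex, the dim probes named above (9.37%, 7.39% and, in either direction, 16.8% of all probes). With HLP+Apocynin 3 left out of the fit, 3 were higher and 2 lower in cortex (10.2%, 8.24% and 18.4% of all probes). Lox in apocynin medulla ran from 7.41 to 9.88 (median 7.85), with array 3 at 9.88 and the next at 8.60, and differed from control by 0.87 ± 0.44 (adjusted p = 0.267). With the log2 table's names, which place the rat called HLP+Apocynin 3 in the apocynin group, this comparison had a median of 0.48 in medulla, where some members were called. HLP+Apocynin against apocynin changed sign with the names, from a median of 0.27 to -0.34 in medulla and from 0.11 to -0.10 in cortex.

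Single rats stood apart in the level of the matrix genes as a whole. The mean difference of the tested members from the control mean was 1.07 in HLP+Apocynin 3 in cortex and 1.62 in medulla. Next came apocynin 3, at 0.45 and 0.92, and the remaining HLP+Apocynin arrays ran from -0.16 to 0.27 in cortex and from 0.12 to 0.53 in medulla. HLP arrays ran from -0.22 to 0.10 in cortex and from -0.23 to 0.25 in medulla, and control arrays from -0.13 to 0.23 and from -0.25 to 0.22. The HLP values thus lay within or close to the control range in both tissues, and in medulla 3 of the remaining 5 HLP+Apocynin arrays lay above it. HLP+Apocynin 3 was the highest of 24 arrays for 32 of 48 members in cortex and 32 of 49 in medulla, 66.7% and 65.3%, compared with 13.1% and 19.3% of all tested probes. Timp3 went the other way, and this rat had the lowest value of its group in cortex (8.62) and medulla (7.76).

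Other lists stood apart in the same rat. In HLP+Apocynin 3 the 3 tested macrophage markers averaged 1.53 above the control mean in cortex and 1.89 in medulla, the 3 cell cycle genes 0.85 and 1.28, the 5 smooth muscle genes 0.50 and 1.52, and the 4 adipocyte genes 0.66 and 1.09, while the 7 proximal tubule genes stood at -0.16 and -1.21 and the 4 endothelial genes at -0.42 and -0.57. Collecting duct, thick limb, podocyte, mesothelial and urothelial markers ranged from -0.50 to 0.31 there. Cd163 and Lep, markers of macrophages and adipocytes, were detected in 0 cortex arrays. In apocynin 3 the macrophage markers stood at 0.49 and 1.09. The part of cell composition in the matrix values of these rats was not tested.

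**Figure D3:**
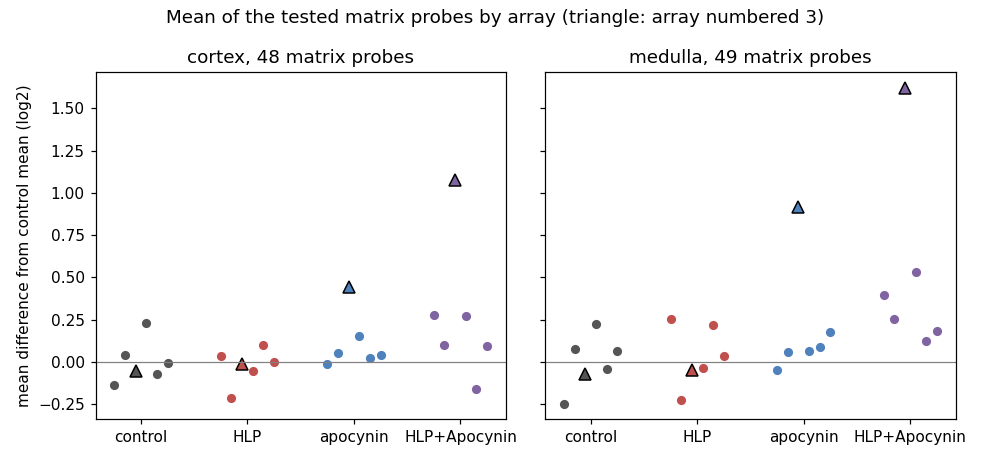
Mean difference (log2) of the tested matrix probes from the mean of the control arrays, for each array in cortex (48 probes) and medulla (49 probes), with the arrays numbered 3 drawn as triangles. HLP+Apocynin 3 stood at 1.07 and 1.62 and apocynin 3 at 0.45 and 0.92, above the other arrays of their groups.

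Some matrix genes also differed between the tissues of the same rats, though a smaller share of members than of all probes was called. That difference in share was not tested. Of 54 members tested over both tissues, 13 were higher in cortex and 13 higher in medulla, beside 33.6% and 30.9% of all probes (64.5% in either direction). Without HLP+Apocynin 3 the counts were 13 and 15 (33.6%, 31.1% and 64.8%). In the arrays without apocynin they were 9 and 9 (30.3%, 27.9% and 58.3%) and in those with it 10 and 11 (27.2%, 23% and 50.2%). Timp3 was higher in cortex in 24 of 24 rats, by 0.81 ± 0.10 or 1.75-fold (adjusted p = 1.90e-09). The gap was 0.94 in the arrays without apocynin and 0.67 in those with it, both called. Mmp11 was higher in cortex in 23 of 24 rats (0.50 ± 0.06, adjusted p = 3.40e-10), Sparc in 20 (0.60 ± 0.12, adjusted p = 4.04e-05) and Adamts1, a protease that cuts aggrecan and versican, in 22 (0.64 ± 0.17, adjusted p = 0.000874), though not called within the apocynin and HLP+Apocynin arrays (0.48 ± 0.23) or under median scaling. Fbln5, an elastic fibre organiser, was higher in cortex in 20 (0.40 ± 0.14, adjusted p = 0.0122), a call made neither in the arrays with apocynin nor in those without. These counts include control 4, whose arrays each lay nearer the other tissue. Its cortex and medulla values were 7.13 and 7.71 for Mmp11, 11.56 and 11.79 for Sparc, and 8.59 and 9.61 for Adamts1. For Timp3 they were 9.53 and 9.34, and for Fbln5 11.13 and 11.11. The tissue fit without this rat is not given.

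In medulla Fn1 showed the greatest excess, higher in 21 of 24 rats by 1.10 (cortex minus medulla -1.10 ± 0.23, 2.15-fold, adjusted p = 4.47e-05). In HLP-fed rats its cortex arrays ran from 7.16 to 7.71 and its medulla arrays from 7.35 to 9.56, and the gap was called both without apocynin (-0.82) and with it (-1.38). In control 4 Fn1 went the other way, at 9.56 in cortex and 7.85 in medulla. Col18a1, the basement membrane collagen that yields endostatin, was higher in medulla by 0.47 (-0.47 ± 0.10, adjusted p = 4.23e-05), with -0.71 in the arrays without apocynin and -0.23, not called, in those with it. Lox (-0.63 ± 0.17), Col6a1, a chain of microfibrillar collagen VI (-0.48 ± 0.16), and Col14a1 (-0.41 ± 0.11) were also higher in medulla, with adjusted p from 0.00152 to 0.00779. For these 3 the gap was called only in the arrays with apocynin (-0.86, -0.78 and -0.71) and not in those without (-0.39, -0.17 and -0.11). The arrays with apocynin include HLP+Apocynin 3. Its cortex and medulla values were 9.94 and 11.32 for Lox, 8.51 and 10.86 for Col6a1, and 8.43 and 9.95 for Col14a1. Without that rat the gap over all groups stayed called for these 3, and the gap with apocynin alone is not given. By role, 4 of 10 basement membrane members were called higher in cortex and 2 higher in medulla, and of the 4 other collagens tested 0 and 3. Fibrillar Col1a1, Col1a2, Col3a1, Col5a1 and Col5a2 were not called, with differences from -0.24 to -0.02.

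**Figure D4:**
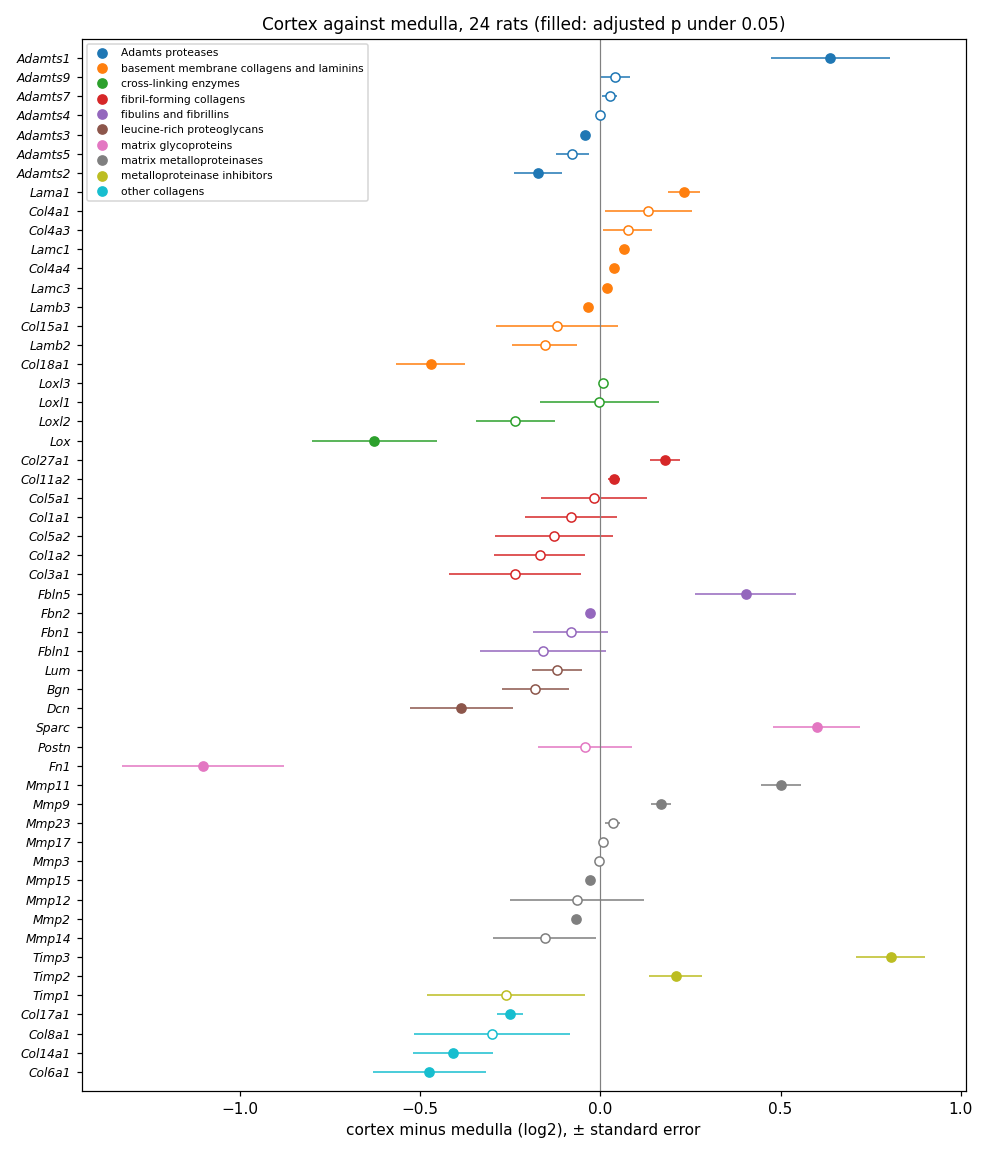
Cortex minus medulla difference (log2, mean of the 4 groups) with its standard error for the 54 member probes tested over 24 rats, coloured by role, with filled symbols for adjusted p under 0.05. Timp3 at 0.81 and Fn1 at -1.10 mark the ends of the range, and the fibrillar chains of collagens I, III and V lie from -0.24 to -0.02 with open symbols.

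Genes that make, cut or bind the matrix outside the rule were looked at as 4 further lists. Of 14 tested genes of collagen synthesis and processing, 0 were called for HLP or HLP+Apocynin against control in either tissue (limma), with medians between -0.02 and 0.04. Of 10 genes of collagen breakdown and the plasmin system 0 were called in those comparisons, with a highest median of 0.27 in HLP+Apocynin-fed medulla. Among 13 matrix receptors tested in cortex, Dag1, which encodes dystroglycan, a laminin receptor, was 0.37 ± 0.08 higher with HLP than control (adjusted p = 0.0313), the only one of 13 called, beside 2.46% of all probes. With HLP+Apocynin 3 of 13 were called higher than control, beside 8.82% of all probes: Dag1 (0.53 ± 0.08, adjusted p = 5.34e-05) and the integrin subunits Itgb6 (0.58) and Itgb5 (0.42). Without array 3 these were 0.48, 0.67 and 0.37, all called. Apocynin without HLP gave 0.57 for Dag1 (adjusted p = 1.38e-05) and 0.46 for Itgb6 (adjusted p = 0.0175). In medulla 0 of 12 receptors were called against control for HLP or HLP+Apocynin, and 2 were lower with HLP+Apocynin than with HLP, the collagen receptor Ddr1 (-0.36, adjusted p = 0.0342 and, without array 3, 0.0415) and Itgb8 (-0.05, adjusted p = 0.0248 and, without array 3, 0.0555). Of 14 other matrix proteins in cortex 1 was higher and 1 lower than control with HLP+Apocynin, beside 16.1% of all probes in either direction: Agrn (0.39, adjusted p = 0.0365; without array 3, 0.30, adjusted p = 0.0996) and Fmod (-0.07, adjusted p = 0.0217 and, without array 3, 0.0333). Of 16 in medulla Fmod, a collagen-binding proteoglycan, was higher than control by 0.11 ± 0.03 (adjusted p = 0.0210 and, without array 3, 0.0448), beside 7.35% of all probes.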

How the data were processed

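Illumina RatRef-12 arrays measured 48 RNA samples. The authors deposited a table of linear signal intensity, neither background-subtracted nor normalized by its values, with a detection p-value per probe, and a table of log2 values that they had normalized by a method not given in the sources used here. Probe symbols came from the platform annotation; all 80 member probes matched RefSeq by gene number and 0 symbols changed.

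Intensities were corrected with normexp (limma nec, from detection p-values, offset 16), quantile normalized over 48 arrays and logged. Probes detected at p under 0.05 in at least 6 arrays of a tissue (12268 in cortex, 11972 in medulla; 12900 over both) were tested with limma 3.58.1 (R 4.3.3, trended eBayes) over 4 groups per tissue, with Benjamini-Hochberg adjustment over all of them and a threshold of 0.05. Tissues were compared with the rat as a random block (duplicateCorrelation, statmod 1.5.0), rat meaning the same group and number, since each rat gave both tissues. Deviations of a rat's arrays from their group means correlated at a median of 0.37, from -0.79 to 0.80 (other pairs, median -0.01). Of 24 rats, 18 were closest to their own partner, and the consensus correlation was 0.17. The number of arrays limits precision. The labels do not say more about the replicates, so p-values measure the spread between these samples.

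Named members are the genes Lox, Lum, Col14a1, Fbln1 and Timp3, up to 4 called members of smallest p each way per comparison, the 3 of smallest p each way for HLP against control, and the 5 largest tissue differences each way; others illustrate their group. Dcn, Col1a1, Timp1 and similar were thus chosen with their values known. Members and lists were chosen with earlier results of these data known. The fits were tested on simulated data with known changes.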

Additional observations from a re-analysis of the deposited data

Results flagged for a closer look

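Each of 12 named members was looked at for an array standing apart from the other 5 of its group (96 groups), and 17 groups held one. The rule flags about 1 in 20 independent groups. These groups share their arrays and their genes were chosen from these data, so the count cannot be set against that rate. In 7 of the 17 the array was HLP+Apocynin 3: Lox in medulla (11.32, others 7.90 to 8.89), Col14a1 in cortex (8.43, others 6.56 to 6.81), Timp3 in cortex (8.62, others 9.26 to 9.62) and medulla (7.76, others 8.66 to 9.20), Mmp2 in medulla (6.53, others 6.63 to 6.68), Lamc1 in cortex (6.95, others 6.82 to 6.86) and Col4a1 in medulla (11.38, others 9.10 to 9.86). In 4 it was apocynin 3: Lum (7.04) and Col14a1 (7.28) in cortex, and Fbln1 (10.04) and Col4a1 (10.38) in medulla. The rest were Lox in control cortex 4 (7.73) and HLP cortex 2 (6.64), Col14a1 in control cortex 4 (7.25) and HLP medulla 6 (7.19), Fbln1 in control medulla 2 (8.19) and Lamb3 in control cortex 2 (6.51).

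The HLP+Apocynin effect differed between cortex and medulla for 4 members by the test of the difference itself (limma): Col14a1 (cortex minus medulla -1.25, adjusted p = 0.00505), Lum (-0.67, adjusted p = 0.0154), Mmp2 (0.10, adjusted p = 0.00464) and Fbn2 (0.08, adjusted p = 4.30e-05). Of all probes 9.38% were called higher, 4.66% lower and 14% in either direction. The effect spans the column blocks in each tissue, and the Fbn2 probe was not detected in control cortex. These tests are given by the signal table's names only.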

How the results depend on the processing

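The number of arrays and, for dim probes, the closeness to the array's floor limit these results. The counts below show how the members' calls moved with the setting. They are not set beside the share of all probes called there, so they describe no trait of the members. The count of members called for HLP against control in cortex was 1 (Timp3) and became 0 under median scaling, with 36 arrays, with no filter on dim probes, in the log2 table, under its names, with the 12 arrays compared and by the methods' t-test. For HLP+Apocynin against control in cortex the 5 became 2 under median scaling, with 36 arrays and with the 3 arrays per group of settled name, and 3 with probes detected in all arrays, under the log2 table's names, with 12 arrays, by the t-test, and without HLP+Apocynin 3 with or without apocynin 3. Against HLP in cortex the 6 became 2 with 36 arrays or with probes detected in all arrays, and 11 with no filter. Apocynin against control in cortex went from 4 to 7 with no filter or 12 arrays and to 1 with probes detected in all arrays. The change of the HLP effect with apocynin in cortex went from 0 to 1 over the 3 arrays of settled name. In medulla HLP+Apocynin against control went from 4 to 7 with no background correction, to 0 in the log2 table, under its names, with 12 arrays and by the t-test, to 2 over the 3 arrays of settled name and to 9 without both arrays numbered 3. Against HLP the 3 became 6, 0, 0, 0, 0, 0 and 9 under those settings in that order. Apocynin against control in medulla went from 0 to 1 with no filter, 11 in the log2 table and 9 under its names. Cortex against medulla went from 26 to 15 with probes detected in all arrays, and the log2 table was not used for it because its tissues were scaled apart. The settings of the 3 arrays of settled name, and without both arrays numbered 3, were chosen after seeing the data. No called difference of a named member changed sign under these settings, whereas differences that were not called did, among them HLP+Apocynin against apocynin with the names of the log2 table.

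With the replicate number as a block, HLP+Apocynin against HLP in medulla gave 5 members in place of 3, and other counts stayed within 1.5 times. Same-numbered arrays of different groups did not deviate together (median correlation 0.02 in cortex and 0.10 in medulla, lowest -0.20 and -0.62), so the numbers do not pair rats between groups.

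Leaving out each array in turn, members called ranged from 0 to 1 for HLP against control in cortex, 2 to 8 for HLP+Apocynin against control, 4 to 16 against HLP and 3 to 5 for apocynin against control. In medulla they ranged from 3 to 7, 2 to 6 and 0 to 1 for the last 3, and 0 throughout for HLP against control.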
